A study of Homo sapiens with 30 samples.

Results

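RAB7A is a small GTPase of late endosomes and lysosomes, and an adenosine in its 3′ UTR was the site that the guide RNAs in these libraries were built to edit. Every listed A-to-G site in an exon of RAB7A (ENSG00000075785.12, plus strand of chromosome 3, GRCh38, GENCODE release 29) was taken, which gave 55 of the 382978 sites in the deposited table. The target lies in exon 6 (chr3:128813327-128814796), at base 1650 of the message. Another 6 sites lay within 50 nt of it and 48 lay farther away, and no site fell in an exon of another gene. RAB7A cycles between a GTP-bound form on membranes, which recruits effectors and tethering factors, and a GDP-bound form held in the cytosol. The MON1-CCZ1 exchange factor switches it on, TBC-domain proteins switch it off, and a lipid on its C-terminal cysteines anchors it. Adenosine deaminases acting on RNA (ADARs) turn adenosine into inosine in double-stranded RNA, and inosine is read as G. A guide RNA makes the double strand at the target.

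The cells were HEK 293T, which derive from human embryonic kidney, and poly(A) RNA was harvested 60 h after they were transfected. For 16 libraries MCP, a phage coat protein that binds MS2 hairpins in the guide (MS2 adRNA), was joined to the catalytic deaminase domain (DD) of either ADAR1 or ADAR2. The domain was wild type or carried a glutamate-to-glutamine change (E1008Q in ADAR1 and E488Q in ADAR2, here E-to-Q), known to raise activity, and the fusion carried a nuclear export signal (NES) or a nuclear localisation signal (NLS). Each of these 8 fusions was present with and without guide. Full-length ADAR2, wild type or E488Q, was present with and without a GluR2 adRNA guide (4 libraries), and the fusion Cas13b-ADAR2 DD (E488Q), here the Cas13b fusion, alone and together with its gRNA (2 libraries). The 7 control samples used were untransfected cells (1 library sequenced in 3 runs), cells given GFP, and each of the 3 guides transfected alone. Every other condition was 1 library. Constructs served as the units of the sign-flip and permutation tests. The linear fits (limma) took each of the 16 MCP libraries as a unit, without a term for the fusion. The guided and unguided library of a fusion thus counted there as separate units for enzyme, variant and localisation. All p-values describe this set of constructs. The files give the edited share of reads without read counts, so the depth behind a share is unknown. The level of each transfected enzyme was not analysed here.

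The sequences around the target and the most edited coding sites show which adenosines were involved. Letters are those of the GENCODE transcript ENST00000265062.7 in the RNA alphabet, 5′ to 3′, and capitals mark listed edited adenosines. The target window spans chr3:128814188-128814216, and 5 of its 7 adenosines were listed: 3 in a row at -10, -9 and -8 from the target, the target itself in a UAG triplet, and 1 at +6.
target window: ugggAAAuccagcuAgcggcAguauucug
T64A site: gauaugggacAcagcaggaca
R103R site: auagcuggagAgaugaguuuc
E203E and S204G sites: cucggcagaAAgcugcaguug
The second window crosses the junction of exon 3 and exon 4 (chr3:128798069 to chr3:128806391), and the capital A in it, base 436 of the message, is the first base of an ACA codon. The third window (chr3:128806490-128806510) marks the last base of an AGA codon, where the change is silent. The fourth (chr3:128813398-128813418) lies just before the stop codon in exon 6, and its capitals are the last base of 1 codon and the first of the next.

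With a guide, the target was edited in all 11 construct pairs. With MCP-ADAR1 DD-NES the share was 1.71% without and 36.6% with guide, and with MCP-ADAR1 DD-NLS 0.685% and 16.0%. The E1008Q forms went from 1.04% to 41.9% (NES) and from 0% to 26.2% (NLS). MCP-ADAR2 DD-NES gave 2.13% and 41.6%, and its NLS form 0.676% and 7.00%. Guided shares thus spanned 7.00% to 41.9%, and unguided shares reached 2.53%, so guided and unguided libraries did not overlap. For MCP-ADAR2 DD (E488Q) the shares were 0.467% and 27.8% with NES and 1.48% and 11.3% with NLS. The wild-type full-length enzyme gave 0% and 27.6%, full-length E488Q 0% and 26.8%, and the Cas13b fusion 2.53% and 11.6%. In controls the target read 0%, 0.606% and 1.75% in the 3 untransfected runs, 0% with GFP, 0.667% with MS2 adRNA alone, 0% with GluR2 adRNA alone and 1.33% with Cas13b gRNA alone. The share rose by 24.0 ± 12.2 percentage points with guide (SD, n = 11 pairs), with the same sign in 11 of 11 (sign-flip permutation test, exact and two-sided, p = 0.000977, the smallest that 11 pairs allow). That p was reached at 108 of the 382978 listed sites, and adjusted over all of them it is 1.

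**Figure D1:**
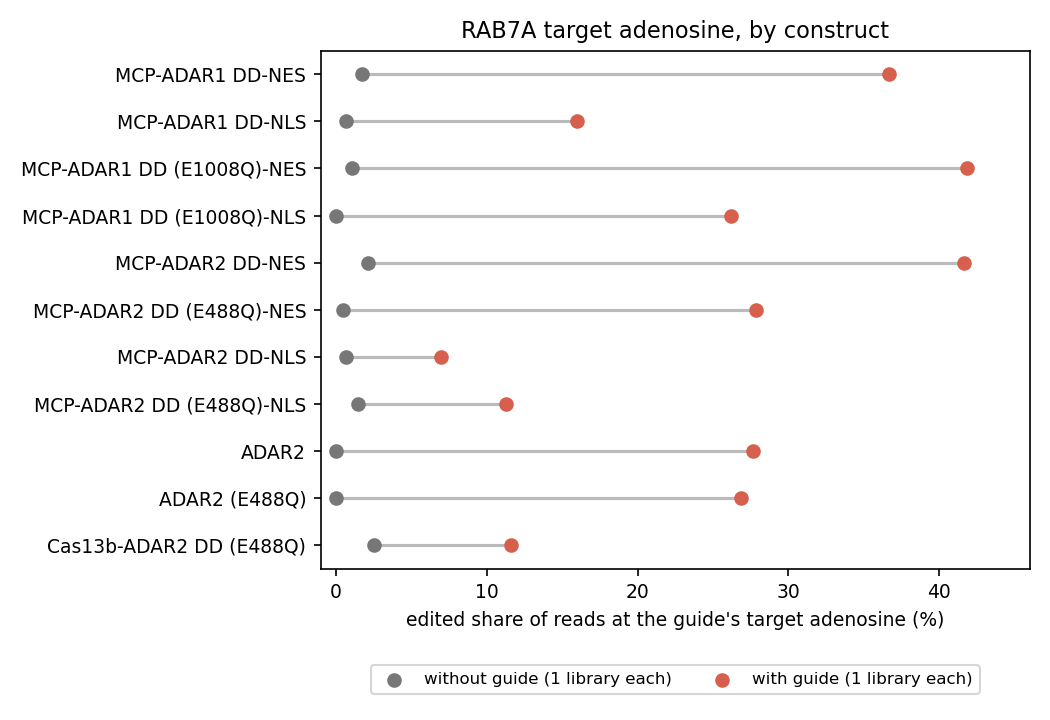
Edited share of reads (%) at the target adenosine of RAB7A for each of 11 constructs, grey without and red with guide, 1 library per point. Guided points run from 7.00% to 41.9% and unguided points from 0% to 2.53%.

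The guided gain was larger in fusions with NES than with NLS, a difference that did not pass after adjustment over 3 factors. In the 4 MCP fusions with NES the gain was 35.7 ± 6.07 points (27.4 to 40.8), and in the 4 with NLS 14.4 ± 8.66 points (6.32 to 26.2; both SD). These groups did not overlap. The difference was -21.2 points for NLS minus NES (exact two-sided permutation test over 8 pairs, p = 0.0286, the smallest this design allows, and 0.0857 after Benjamini-Hochberg adjustment over the 3 factors tested). On log2 ratios with a pseudocount of 0.01 the difference was -0.90 with p = 0.229 in the exact permutation test. E-to-Q forms gained 26.0 ± 12.7 points and wild-type forms 24.0 ± 15.8 (SD, n = 4 each, exact permutation p = 0.857), with ranges of 9.83 to 40.8 and 6.32 to 39.5 that overlapped almost fully. ADAR2 fusions gained 20.8 ± 15.5 points and ADAR1 fusions 29.3 ± 11.1 (SD, n = 4 each, exact permutation p = 0.371).

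Around the target, the pattern of guided shares differed between deaminase domains in these libraries. A test of whether the guide effect differed by enzyme passed at none of these sites after adjustment over all listed sites. The call for enzyme at -8 given below takes guided and unguided MCP libraries together. At -8 the share with guide was 14.1%, 7.34%, 27.8% and 11.8% in the MCP-ADAR1 libraries (DD-NES, DD-NLS, E1008Q-NES and E1008Q-NLS), and 3.90%, 0%, 6.25% and 1.28% in the MCP-ADAR2 libraries (DD-NES, DD-NLS, E488Q-NES and E488Q-NLS). Without guide no construct exceeded 0.654% there. The gain at -8 was 6.78 ± 8.20 points (SD, n = 11 pairs) and positive in 10 of 11 (exact sign-flip permutation p = 0.00195). At -9 the guided share was 8.98%, 3.98%, 19.9% and 6.25% in MCP-ADAR1 and 11.5%, 0.478%, 9.18% and 3.40% in MCP-ADAR2, and the gain of 5.53 ± 5.93 points was positive in 10 of 11 pairs (exact sign-flip permutation p = 0.00293). The listed sites were selected for a call in at least 1 deaminase library (calls are defined below). At -8 and at -9 all 5 calls were in guided libraries. Their listing thus favoured a gain with guide, and p-values for guide at these sites, here and below, are only a description. At -10 the order of the enzymes was turned in the NES fusions: MCP-ADAR2 DD-NES reached 11.3% and its E488Q form 6.83% with guide. The guided MCP-ADAR2 NLS libraries had 0% (wild type) and 0.847% (E488Q) there, and no MCP-ADAR1 library passed 1.13%. At -29 only MCP-ADAR1 DD (E1008Q)-NES with guide was above 1%, at 9.09%. The 3 adenosines upstream thus carried up to 67.0% of the target's own gain in MCP-ADAR1 DD (E1008Q)-NES at -8. The GluR2 adRNA and Cas13b guides gave at most 2.43% and 0.418% at -8, and at most 2.42% and 0.417% at -9.

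**Figure D2:**
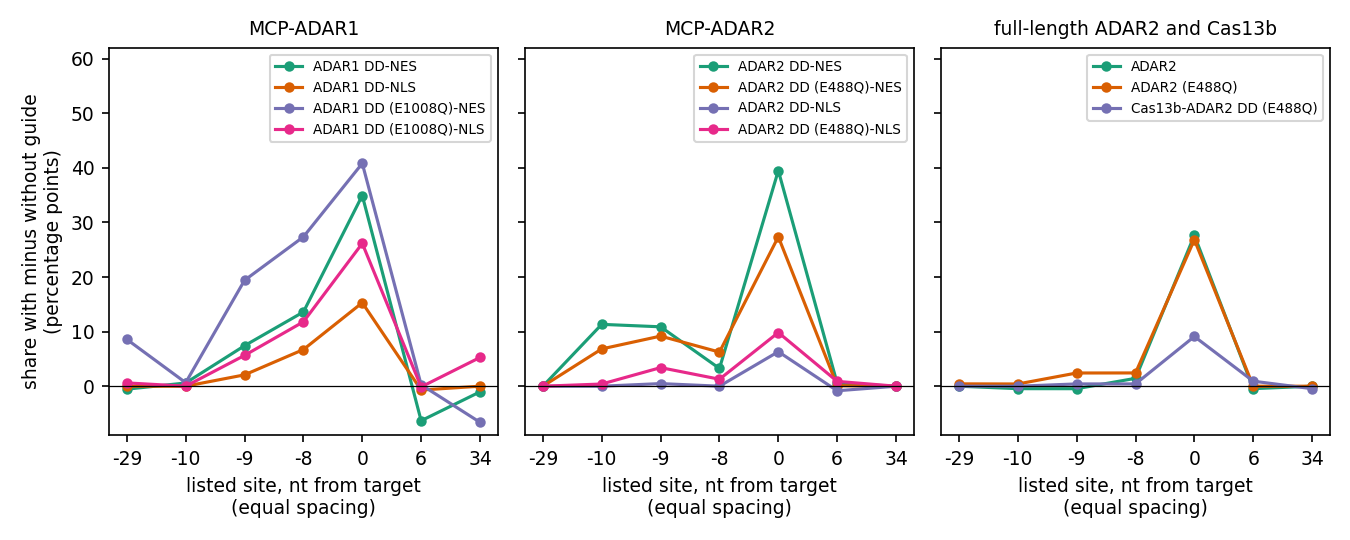
Share with minus without guide (percentage points) at the 7 listed sites within 50 nt of the target, by nt from the target with equal spacing, 1 line per construct. The MCP-ADAR1 lines rise from -9 to -8 and peak at 0, the MCP-ADAR2 NES lines are raised from -10 to the target, and full-length ADAR2 and Cas13b are near 0 except at the target.

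Downstream sites did not follow the guide. At +6 the share was 6.32% without and 0% with guide in MCP-ADAR1 DD-NES, at most 2.41% in every other deaminase library, and the mean difference over 11 pairs was -0.52 ± 2.01 points (SD, exact sign-flip permutation p = 0.621). At +34 the share was 13.4% without and 6.79% with guide in MCP-ADAR1 DD (E1008Q)-NES, and 2.597% without and 7.87% with guide in its NLS form, so the difference went opposite ways. Tests of a different guide effect by enzyme, variant or localisation, fitted with limma across all listed sites, passed at 0 of them, with 9612, 8078 and 8365 sites under 0.05 unadjusted. At -8 the guide effect by enzyme had an unadjusted limma p of 0.000387 and an adjusted p of 1.

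A limma fit of all 382978 sites in the 16 MCP libraries called 3 sites higher with guide (0.000783%) and none lower (0%), with 11666 under 0.05 unadjusted. The target was 1 of the 3 and the single RAB7A site among them. Its mean rose from 1.02% to 26.1%, a difference of 25.0 ± 13.3 points (SD, n = 8 pairs, higher in 8 of 8), with a limma adjusted p of 0.0480. That call was lost without the intensity trend (adjusted p = 0.0761), with an enzyme-by-variant term (0.0989), on untransformed shares (1) and when any of 15 of the 16 libraries was left out (0.0574 to 0.266). With guide interactions in the model, chosen after seeing the data, the adjusted p was 0.00505 at the target, 0.0155 at -8 and 0.0702 at -9.

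The most edited site away from the target was a coding site, edited with and without guide. Editing at base 436 of the message changes Thr64 to Ala (T64A) in the WDTAGQ motif, a stretch of switch II that lies by the nucleotide's γ-phosphate in Rab proteins. It was called in 19 of 22 deaminase libraries, where a call means an adjusted p under 0.01 in the authors' deposited table and a share above the untransfected mean. Its share ran from 0.988% to 48.5% with a median of 16.5%, and reached 0.302% in controls. The highest library was MCP-ADAR1 DD (E1008Q)-NES without guide (48.5%), followed by the same construct with guide (43.7%) and full-length ADAR2 (E488Q) with guide (39.4%), and the lowest was MCP-ADAR2 DD-NLS without guide. In the MCP libraries the mean was 30.1% with E-to-Q and 6.48% with wild type, a difference of 23.6 ± 6.83 points (SD, n = 8 pairs, higher in 8 of 8, limma adjusted p = 4.9e-06), and the groups did not overlap. ADAR2 fusions averaged 12.3% and ADAR1 fusions 24.3% (-12.0 ± 8.02 points, SD, lower in 8 of 8, limma adjusted p = 6.4e-05). NLS libraries averaged 15.1% and NES libraries 21.5% (-6.32 ± 5.98 points, SD, lower in 8 of 8), which just missed the threshold at a limma adjusted p of 0.05005. With guide the mean was 19.0% against 17.6% without (1.40 ± 2.87 points, SD, higher in 7 of 8 pairs, limma adjusted p = 1).

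In 5 of the 11 guided libraries another RAB7A site was edited more than the target. The T64A site was above it in MCP-ADAR1 DD (E1008Q)-NES and -NLS, in MCP-ADAR2 DD (E488Q)-NLS, in full-length ADAR2 (E488Q) and in the Cas13b fusion, all of them E-to-Q forms. Target share divided by T64A share was 0.499 in MCP-ADAR2 DD (E488Q)-NLS and 8.05 in MCP-ADAR2 DD-NES. In the remaining 6 libraries, of which 5 had wild-type domains, the target was the highest RAB7A site. Of all share gained above the untransfected mean across the 55 sites, the target held 11.0% to 47.9% with guide (median 21.3%).

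**Figure D3:**
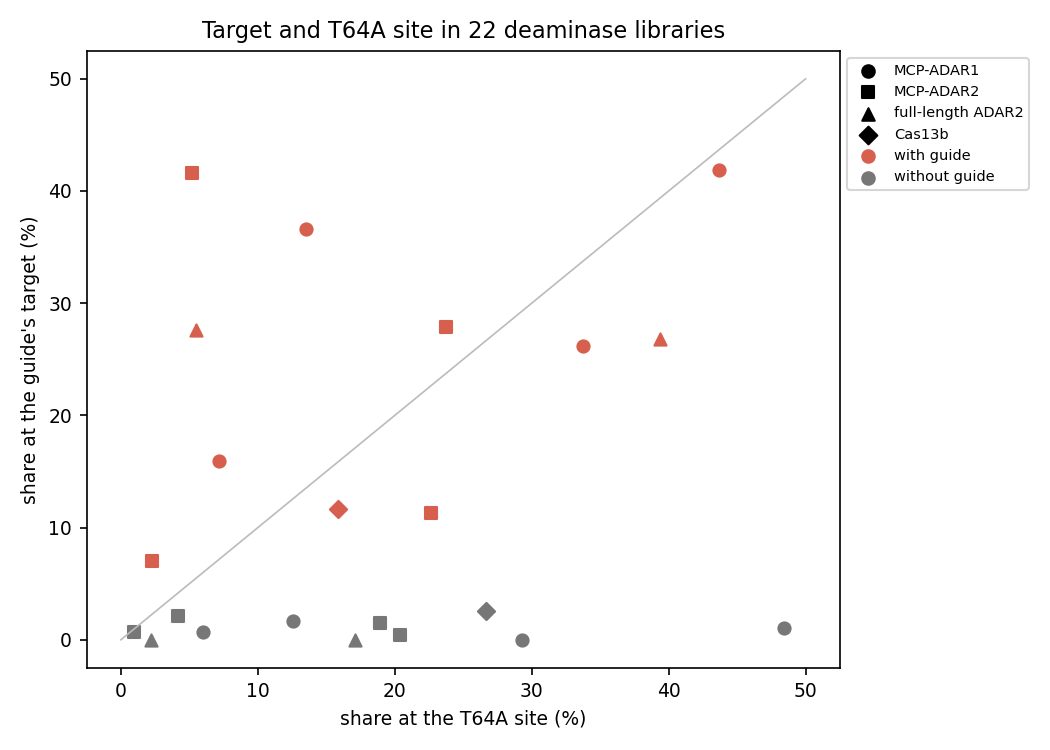
Share (%) at the target against share (%) at the T64A site in 22 deaminase libraries, red with and grey without guide, with a marker for each enzyme class and a line of equality. Red points of wild-type domains lie above the line, and grey points lie along the bottom up to a T64A share of 48.5%.

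The 55 sites were spread over the message of 2244 nt: 3 in the 5′ UTR, 22 in the coding sequence and 30 in the 3′ UTR. They were 9.42% of its 584 adenosines, all of them A on the transcript strand. A 3′ neighbour G followed 54.5% of the listed adenosines and 24.6% of the unlisted ones, and a 5′ G preceded 16.4% and 24.4%. By region, the 5′ G shares were 16.7% and 17.3% in the 3′ UTR and 13.6% and 33.5% in the coding sequence. In the 5′ UTR, with 3 listed sites, they were 33.3% and 55.2%. ADARs are known to disfavour a G on the 5′ side and to favour one on the 3′ side. The sites called in at least 1 deaminase library were 55 of 55, but the table as a whole was selected this way and 100% of its sites pass. In controls 0 of 55 were called against 0.00757% of all sites. Only 3 of 55 (5.45%) were called in 11 or more deaminase libraries, against 6.63% of all sites: the T64A site, R103R with 12 libraries and the target with 11. A further 22 (40%) were called in 1 deaminase library alone, against 36.5% of all sites.

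**Figure D4:**
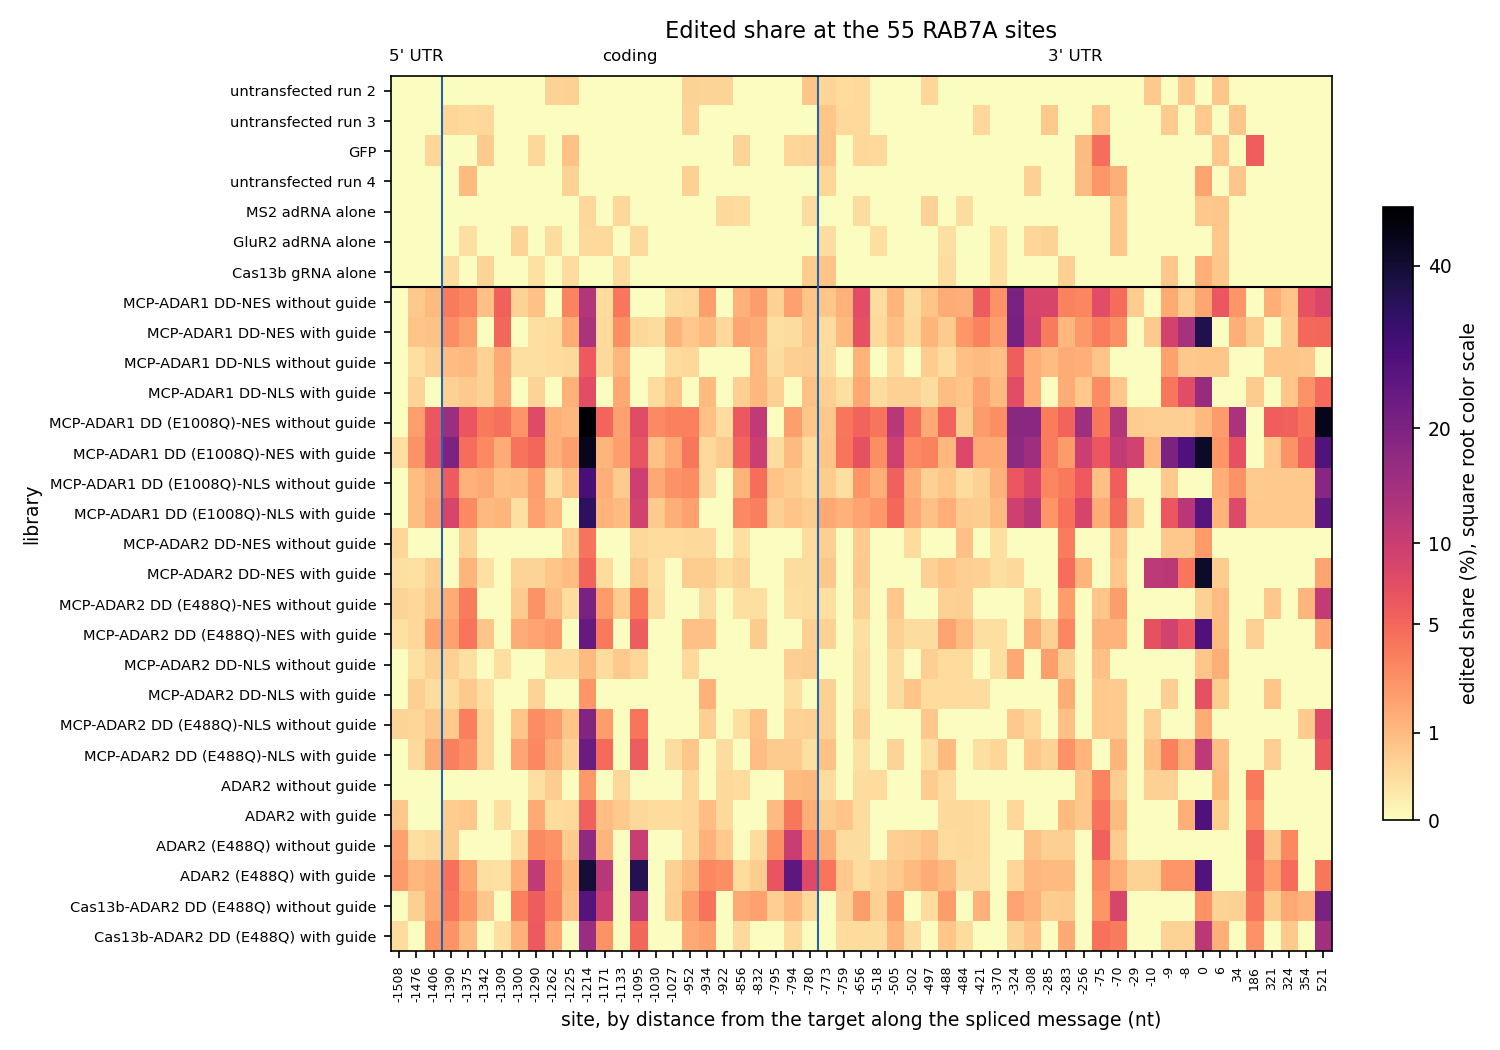
Edited share (%) on a square root color scale for the 55 RAB7A sites (columns, by distance in nt from the target along the spliced message) in 29 samples (rows, the 3 untransfected runs shown apart, controls above the black line). The E1008Q libraries are dark over most of the message, the target column is dark with guide, and the T64A column at -1214 nt is dark in E-to-Q libraries with and without guide.

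Counts of called RAB7A sites tracked the share called in the whole table. Among MCP-ADAR1 libraries, DD-NES had 14 of 55 RAB7A sites called without guide (25.5%, against 30.3% of all sites) and 9 with guide (16.4% against 26.4%). Its NLS form had 2 (3.64% against 5.35%) and 4 (7.27% against 7.45%). With E1008Q and NES the counts were 32 (58.2% against 59.2%) and 30 (54.5% against 51.1%), and with E1008Q and NLS 9 (16.4% against 23.5%) and 15 (27.3% against 28.9%). The E1008Q-NES libraries were thus the most edited over RAB7A and over the table alike. Among MCP-ADAR2 libraries, DD-NES had 1 (1.82% against 2.48%) and 4 (7.27% against 5.29%), and DD-NLS 0 (0% against 0.982%) and 1 (1.82% against 1.24%). E488Q with NES had 4 (7.27% against 9.21%) and 8 (14.5% against 11.2%), and with NLS 4 (7.27% against 7.32%) and 7 (12.7% against 9.94%). Full-length ADAR2 had 0 (0% against 1.5%) and 3 (5.45% against 4.85%), its E488Q form 4 (7.27% against 6.72%) and 14 (25.5% against 32.7%), and the Cas13b fusion 10 (18.2% against 29.5%) and 4 (7.27% against 12.9%). Beyond 50 nt of the target, the level moved with that of the whole table. In full-length ADAR2 (E488Q) the summed share above the untransfected mean at the 48 distant sites was 2.65 times as high with guide, and the mean share of all listed sites 2.89 times. In the Cas13b fusion these ratios were 0.539 and 0.590, and both lay on the same side of 1 in 11 of 11 constructs. The part of enzyme level in these ratios was not tested. The distant sum was higher with guide in 7 of 11 constructs.

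Across the 55 sites, every call for E-to-Q was toward a higher share, and the calls for enzyme were mostly toward a lower share with ADAR2. Of the 55 sites 17 (30.9%) rose with E-to-Q and 0 fell, against 39.7% and 0.72% of all sites. With ADAR2 in place of ADAR1, 32 (58.2%) fell and 1 (1.82%) rose, against 66% and 2.6% of all sites. NLS against NES changed 0 of 55 in either direction (limma, adjusted), against 3.76% of all sites lower and 0.0397% higher. Under 0.05 unadjusted were 15 of the 55, against 115541 of all 382978 sites. The mean was lower with NLS at 51 of the 55. Their median limma effect was -0.0352 on the arcsine scale, against -0.0443 over all sites, so this direction was that of the whole table. By class, 25 of the 48 distant sites had their highest mean in MCP-ADAR1 E1008Q (4 libraries), 13 in full-length ADAR2 E488Q (2 libraries), 8 in wild-type MCP-ADAR1 (4 libraries) and 2 in the Cas13b fusion (2 libraries). The 13 include 128814388 and 128814127, whose class means of 5.11% and 4.10% were below the shares of 5.60% and 4.50% in the GFP control. The same count over all listed sites is not given here, so these class counts are no result about RAB7A in particular. MCP-ADAR1 DD (E1008Q)-NES also had the highest mean over all listed sites (11.4% without and 10.4% with guide).

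Individual distant sites differed in which enzyme edited them. In the 3′ UTR, 128814723 had a mean of 9.10% over the 22 libraries and a highest share of 44.4% in unguided MCP-ADAR1 DD (E1008Q)-NES, and in MCP libraries it averaged 17.7% with E-to-Q and 2.49% with wild type (15.2 ± 11.5 points, SD, n = 8 pairs, higher in 7, limma adjusted p = 0.000538). Among MCP libraries, 128813878 and 128813894 were edited more with ADAR1. At 128813878 the 8 MCP-ADAR1 libraries ran from 5.59% to 21.0% and the 8 MCP-ADAR2 libraries from 0% to 1.59%, with no overlap (-12.9 ± 6.95 points for ADAR2 minus ADAR1, SD, limma adjusted p = 1e-05), and full-length ADAR2 reached 0.341%. E-to-Q forms averaged 6.52% there and wild-type forms 7.00% (limma adjusted p = 0.775), unlike at T64A. At 128813894 the ADAR1 mean was 9.24% and the ADAR2 mean 0.327%, and the mean was 6.97% with E-to-Q and 2.59% with wild type (limma adjusted p = 0.00454). Other sites with large E-to-Q differences in the MCP libraries were 128813697 (3.75 points), 128814132 (3.58), 128814236 at +34 from the target (3.37), K191R (3.16) and the silent K38K (3.04). The call at 128814236 (limma adjusted p = 0.0398) was lost when any of 11 of the 16 libraries was left out (0.0509 to 0.0888) and on untransformed shares (0.0667). For ADAR2 minus ADAR1 they were 128813946 (-5.60 points), 128814132 (-4.34), 128814236 (-4.29) and 128813697 (-4.05), together with -8 from the target (-6.33) and K5R (-6.21). With an enzyme-by-variant term in the fit, the enzyme effect is that of wild-type forms alone. That effect did not pass at 128814723 (limma adjusted p = 0.0846), -8 from the target (0.105), K5R (0.0756), 128814132 (0.205), 128814236 (0.155) and 128813697 (0.160).

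The 1 site that rose with ADAR2 was 128726263 in the 5′ UTR, at levels of 0.189% and 0.0262% (0.16 points, limma adjusted p = 0.0259). That call was lost on untransformed shares (0.0915) and without the intensity trend (0.0855). It was also lost without any of 4 unguided libraries (0.0522 to 0.0581): MCP-ADAR1 DD-NES, MCP-ADAR1 DD (E1008Q)-NES, MCP-ADAR2 DD-NES and MCP-ADAR2 DD (E488Q)-NLS. With the enzyme-by-variant term, the enzyme effect in wild-type forms had a limma adjusted p of 0.184. The highest 5′ UTR site was 128795365, 3 nt before the start codon, at a mean of 1.35% and a highest share of 6.53% in MCP-ADAR1 DD (E1008Q)-NES with guide. No listed site altered the start codon.

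Among the 22 coding sites, 18 were recoding, 3 synonymous and 1 removed the stop codon. The substitutions were K5R, K10R, K21R, K32R, N35S, K38K, K48E, Q60R, T64A, Y78C, T91A, R103R, N125S, K126R, Y151C, K157R, N161S, Y183C, K191R, E203E, S204G and *208W. Lys21 belongs to the P-loop that binds the nucleotide's phosphates, and K21R had a highest share of 3.79%. Asn125 and Lys126 belong to the NKxD motif that reads the guanine base, and N125S and K126R reached 2.95% and 3.42%, both in unguided MCP-ADAR1 DD (E1008Q)-NES. K5R near the N-terminus reached 20.1% in MCP-ADAR1 DD (E1008Q)-NES with guide, and its mean was 7.15% with E-to-Q and 1.08% with wild type (6.07 ± 5.89 points, SD, n = 8 pairs, higher in 8 of 8, limma adjusted p = 0.00226). The silent site R103R rose with E-to-Q too. MCP E-to-Q libraries ran from 3.81% to 9.69% and MCP wild-type libraries from 0% to 0.559% (6.32 ± 2.30 points, SD, higher in 8 of 8, limma adjusted p = 2.5e-05).

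A cluster at the C-terminus was highest in full-length ADAR2 (E488Q). S204G, beside the cysteines that carry the prenyl group, had 10.2% without and 25.2% with guide in that enzyme, and 1.01% and 3.97% with full-length wild-type ADAR2. In the 4 MCP-ADAR2 E488Q libraries it did not pass 0.562%, and in the Cas13b fusion 1.04%. The stop codon UGA becomes UGG (Trp) at *208W, with 2.82% in unguided and 7.84% in guided full-length ADAR2 (E488Q), and at most 1.41% in any other library. E203E, next to S204G, reached 6.49% with the same enzyme and guide. R103R, outside this cluster, also peaked in guided full-length ADAR2 (E488Q), at 35.8% against 10.1% without guide. Among unguided libraries R103R was higher in the Cas13b fusion, at 11.1%. Full-length and MCP forms were not compared by a test, since each full-length form had 2 libraries with different guide states.

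**Figure D5:**
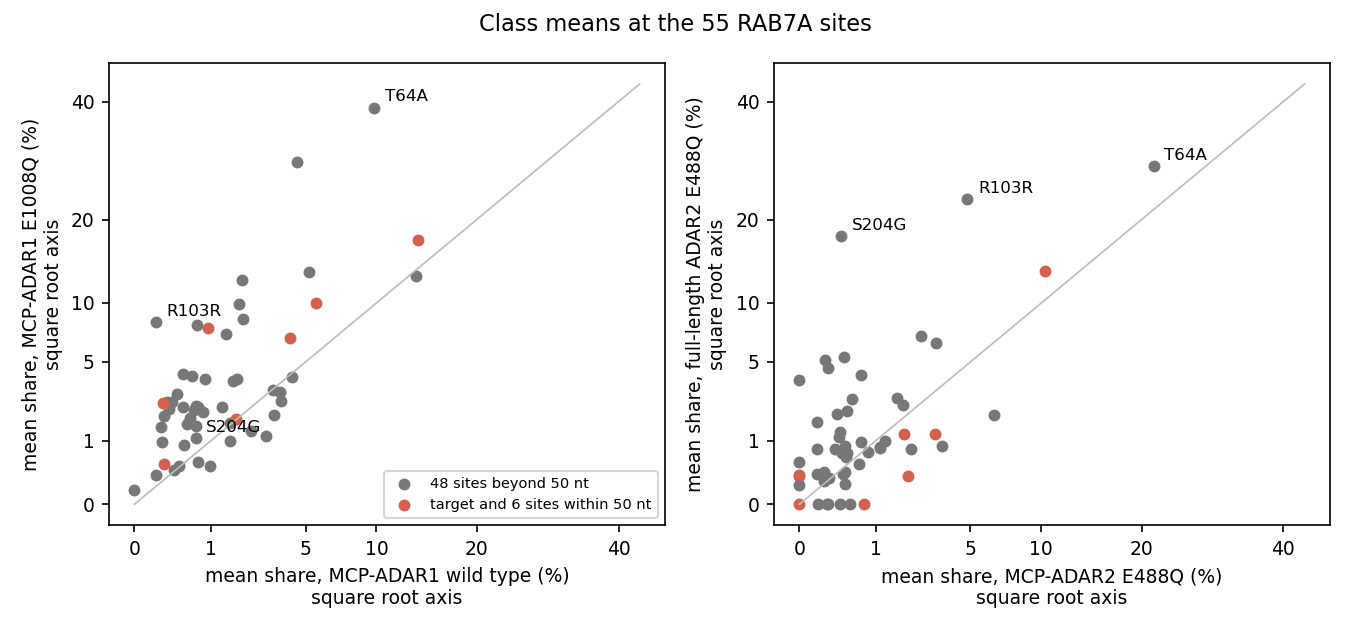
Mean share (%) at the 55 RAB7A sites on square root axes, MCP-ADAR1 E1008Q against wild type (left) and full-length ADAR2 E488Q against MCP-ADAR2 E488Q (right), with T64A, R103R and S204G named and the line of equality. Most points lie above the line on the left, and S204G and R103R stand far above it on the right.

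Compared with the median gene, RAB7A had more listed sites per kb and a lower mean share at them. It held 20.2 listed sites per kb of exon, against a median of 5.22 over 9352 protein-coding genes with sites, of which 86.7% had fewer per kb. Its mean share beyond 50 nt was 1.96%, against a median gene mean of 4.35%. Read depth is unknown, and its part in which sites were listed was not tested. The genes with the most similar mean share across the 22 libraries, among 7245 with at least 10 sites, were SENP1 (Pearson r = 0.994), GABARAP, CLIC1, DRG2 and MTMR4 (0.989). The median gene had 0.904 and the mean over all listed sites 0.989, and all these values share the same libraries. Among these 5 genes, CLIC1 had 37.6 sites per kb at a mean of 2.44%, DRG2 17.1 at 2.44% and GABARAP 11.0 at 2.82%. MTMR4 had 7.49 per kb at 6.01% and SENP1 4.10 at 7.43%. Dense listing with a low mean was thus not particular to RAB7A. For the target, the most similar sites of other genes lay in CP and HPS3 at chromosome 3 position 149162755 (r = 0.843, 11.2% with and 0.433% without guide), PLRG1 (0.831, 9.30% and 0.376%), LUC7L2 (0.820), SPTBN1 (0.811) and CHMP4B (0.801). These sites were found by their likeness, so their shares are given as a description.

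Of 32 genes in its pathway 28 had listed sites, 800 in all. Guide changed 0 of the 800 (limma, adjusted; 31 under 0.05 unadjusted), against 0.000783% of all sites higher and 0% lower, so a count of 0 is no result about these genes. E-to-Q raised 359 (44.875%) and lowered 5 (0.625%), against 39.7% and 0.72% of all sites. ADAR2 against ADAR1 lowered 530 (66.25%) and raised 21 (2.625%), against 66% and 2.6%. NLS lowered 37 (4.625%) and raised 0, against 3.76% and 0.0397%. These shares lay near those of the whole table. Among regulators, the exchange-factor gene MON1B had 42 sites at a mean of 7.35% and the GAP gene TBC1D15 19 sites at 4.59%. Retromer and its partners included VPS35 with 70 sites at 4.19% and SNX3 with 78 at 2.596%, and the HOPS tether included VPS39 with 62 at 8.44%. The effectors RILP and FYCO1 and the GAP genes TBC1D5 and TBC1D2 had 0 listed sites.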

How the data were processed

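Per the labels' protocols, libraries came from 300 ng of RNA and were read as 100 bp pairs. Tools listed in the submitters' processing notes are STAR 2.6.0c, bcl2fastq 2.18.0.12 and SAMtools, with the build GRCh38.p12. Of the 2 deposited tables, both by site, the authors gave in one the fraction of reads with the edited base and in the other adjusted p-values, whose test is not given in the sources used here. Neither gives read counts, so depth per sample is unknown. Of 30 samples 29 were used, because 1 unnamed column could not be assigned. The 3 untransfected runs are technical repeats of 1 library.

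Sites were assigned to genes with GENCODE release 29 (bedtools 2.31.1, Python 3.11.15, numpy 2.4.6, pandas 2.3.3), and plots drawn with matplotlib 3.10.9. The target gain was tested by exact sign-flip over 11 construct pairs, and its dependence on localisation, variant and enzyme by exact permutation of 8 MCP pairs. limma 3.58.1 (R 4.3.3) was fitted to arcsine square roots of all 382978 sites in 16 MCP libraries, with main effects of guide, enzyme, localisation and variant, a trend of the spread with mean level, adjustment by Benjamini-Hochberg over all sites, a threshold of 0.05 and 11 residual degrees of freedom. The fits were tested on simulated data. Percent differences beside limma values are means over 8 matched pairs. Alternatives changed the scale, the trend, the model, the minimum share (1%), the call threshold (0.05 and 0.001, or 5 points above the untransfected mean) and left out libraries or pairs. Named sites were the target, sites within 50 nt, the T64A site, the 10 highest means, the highest per region, sites past a limma threshold (up to 10 per factor) and start or stop codon changes. The C-terminal cluster and the pathway genes quoted as examples were picked after seeing values. The members and lists were chosen with earlier results of these data known.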

Additional observations from a re-analysis of the deposited data

Results flagged for a closer look

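Of the 55 RAB7A sites 2 showed a share in the GFP control at least 2 points above the highest untransfected run. The share of all listed sites that meet this rule is not given here, so whether 2 of 55 is unusual is unknown. At 128814388 in the 3′ UTR the GFP library had 5.60%, and all untransfected runs 0%. The 7 libraries of GFP, full-length ADAR2 and the Cas13b fusion ran from 2.54% to 5.60% at this site, and the other 22 samples from 0% to 0.621%. At 128814127 the GFP library had 4.50%, against a highest untransfected run of 2.27%. There the same 7 libraries ran from 2.41% to 5.33% and the other 22 from 0% to 7.36%, so they overlapped. The authors' deposited table gives an adjusted p of 1 for both sites in GFP. What the 7 libraries share beyond their constructs was not tested.

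The guided gain at the target differed between localisations, by -21.2 points for NLS minus NES (exact permutation test over 8 pairs, p = 0.0286, adjusted over 3 factors 0.0857, lower in each of the 4 NLS fusions than in every NES fusion).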

How the results depend on the processing

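The target's guided gain kept its direction under every alternative run: 25.0 points over the 8 MCP pairs, 22.3 to 25.7 without any 1 pair, 3.67 as a log2 ratio and 0.429 on the arcsine scale. Its exact sign-flip p, adjusted over all sites (chosen after seeing the data), was 1 with a gain of 24.0 points; 11 pairs cannot give a p small enough for that many sites. The localisation difference did not pass after adjustment in the main test. As a log2 ratio (-0.90) its unadjusted exact permutation p was no longer under 0.05. Without any 1 pair the difference ranged from -25.2 to -18.6 points (exact permutation p from 0.0286 to 0.0571). The difference by variant ranged from -3.86 to 7.44 points without 1 pair, reversing without MCP-ADAR1 DD-NLS (-0.87), MCP-ADAR1 DD (E1008Q)-NES (-2.89) or MCP-ADAR2 DD-NLS (-3.86), and by enzyme from -14.8 to -3.74. RAB7A sites changed by guide fell from 1 to 0 on untransformed shares, without the trend and with the enzyme-by-variant term, were 0 to 1 without 1 library, and became 2 with guide interactions. Sites changed by localisation became 1 without the trend and 2 with the enzyme-by-variant term, and were 0 to 1 without 1 library. Sites changed by enzyme fell from 33 to 15 with that term, where the enzyme effect is that of wild-type forms, and to 20 above a 1% mean share, where fewer sites were tested, and were 30 to 36 without 1 library. Sites changed by E-to-Q were 14 to 20 without 1 library. With guide interactions 22 of all listed sites were called for guide. For the other settings the counts over all listed sites are not given here. These changes in count are therefore no result about RAB7A in particular. Called sites were 55, a count fixed by how the sites were selected, and 36 at 5 points or more above the untransfected mean. The share of all listed sites at 5 points or more is not given here, so 36 is no result about RAB7A. No fit with a replicate block was possible because groups share no replicate numbers in the labels; the pairs tested are constructs. Depth is unknown, so small shares carry an error that the files do not give. Among the single sites named for E-to-Q, leaving out 1 library kept the call in 149 fits and lost it in 11, all 11 at 128814236; for enzyme it kept 172 and lost 4, all 4 at 128726263.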
